A study of Homo sapiens with 90 samples.

Results

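The activin family genes measured here were INHBE, INHBC, INHBA, INHBB, FST and ACVR1C, followed in HepaRG cells across 9 concentrations of 3 agrochemicals. Every probe set whose only gene symbol in the platform annotation is 1 of these 6 genes was taken, which gave 11 of the 54715 probe sets on the array and 6 of the 19774 genes with a probe set of their own. The genes were chosen on the INHBE values at 10 µM and their variance over the 27 conditions, so the INHBE concentration response is described without a test. HepaRG is an established human hepatoma line that can be differentiated into hepatocyte-like and biliary-like cells, and all arrays came from this single line.

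The 24 h exposures were to 1 of the fungicides fenbuconazole (a triazole) and imazalil (an imidazole) or to the phenoxy herbicide 2,4-D. The 9 concentrations ran in steps of about 3-fold between 0.001 and 10 µM, with 3 arrays per concentration. The control was 3 arrays of cells given the vehicle, 0.2% DMSO. Each sample label carries a code, P1, P2 or P3, that covers every concentration and DMSO once and is used here as the replicate number. The deposited unit is log2 expression from the RMA procedure (robust multi-array average). It was applied to 1 chemical at a time together with the same 3 DMSO arrays, so that the 9 DMSO columns are 3 physical arrays and the 3 chemicals are not independent of each other in their contrasts with DMSO.

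Column medians lay between 2.81 and 2.97 log2 units. All 9 of the 9 measured hepatocyte markers stood above the column median in every column. Of the 6 endothelial genes KDR did so, while PECAM1, VWF, CDH5, STAB2 and CLEC4G did not. Of the 6 immune genes CD14 did so, while PTPRC, CD68, CD163, CD3E and MS4A1 did not. KRT7, EPCAM and CFTR of the 6 biliary genes and THY1 of the 7 mesenchymal genes also did not.

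Activins are secreted dimers of inhibin beta subunits and belong to the TGF-beta superfamily. They bind type II receptors, which recruit and phosphorylate type I receptors, and the signal passes to SMAD transcription factors. INHBE and INHBC encode the beta E and beta C subunits, which are made chiefly in liver. INHBA and INHBB encode the beta A and beta B subunits, which are made in many tissues. FST encodes follistatin, a secreted protein that binds activins and keeps them from their receptors. ACVR1C encodes ALK7, a type I receptor best known from adipose tissue.

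INHBE and INHBC are neighbours on chromosome 12. In GRCh38.p14, INHBC spans positions 57434784 to 57452062 and INHBE spans 57455307 to 57458025, with 3244 bases between them. INHBA lies on chromosome 7, FST on chromosome 5, and INHBB and ACVR1C lie on chromosome 2. RefSeq promoter sequences of this build matched 5 of the 6 genes. The 250 bases before the start site are shown for INHBB and FST, 5′ to 3′ on the plus strand. These are the genes other than INHBE with a probe set whose arrays at 10 µM lay below DMSO under both fungicides. For FST this held for 1 of its 3 probe sets, 204948_PM_s_at. Capitals mark 4 motifs on either strand, namely GGGCGG (the GC box), then CCAAT (the CCAAT box), then TATAAA (the TATA box) and also TGACGT (the start of the cyclic AMP response element). No match overlaps a match of another motif in these windows, and copies of GGGCGG can overlap each other.
INHBB, chr2:120345886-120346135: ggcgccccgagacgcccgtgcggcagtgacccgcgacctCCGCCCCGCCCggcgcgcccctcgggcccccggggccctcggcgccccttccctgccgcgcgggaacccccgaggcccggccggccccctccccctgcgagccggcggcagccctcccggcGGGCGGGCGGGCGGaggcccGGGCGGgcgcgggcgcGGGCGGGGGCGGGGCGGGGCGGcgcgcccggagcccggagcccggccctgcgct
FST, chr5:53480379-53480628: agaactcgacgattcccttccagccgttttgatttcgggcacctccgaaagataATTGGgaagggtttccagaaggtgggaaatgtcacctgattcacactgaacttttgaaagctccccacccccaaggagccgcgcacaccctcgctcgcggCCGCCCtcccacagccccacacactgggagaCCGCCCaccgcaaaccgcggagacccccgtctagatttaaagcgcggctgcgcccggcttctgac

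The INHBB window held GGGCGG at 10 positions and none of the other motifs, with a GC content of 89.6%. The FST window held GGGCGG at 2 positions and CCAAT at 1, with a GC content of 60%. The median GC content of the 35116 promoter windows of this length was 58%. GGGCGG occurred in 42.6% of these windows, CCAAT in 32%, TATAAA in 10.7% and TGACGT in 7.1%. These matches describe the letters only, and binding at them was not measured.

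INHBE had the widest range of the members, from 5.13 to 8.57 log2 units over the 90 columns, with a median of 7.74. It was low in the cells given 10 µM of either fungicide. INHBE stood at 6.55, 5.13 and 6.52 log2 units in P1, P2 and P3 at 10 µM fenbuconazole, against 7.33, 7.68 and 8.00 in DMSO. The groups did not overlap, and the array of P2, which was neither the highest nor the lowest of the DMSO arrays, was the lowest at 10 µM. The mean was 6.07 ± 0.81 at 10 µM fenbuconazole and 7.67 ± 0.33 in DMSO (SD, n = 3 each), a difference of -1.60 (SE 0.30), or 3.04-fold lower. Within the P codes the differences were -0.78, -2.55 and -1.48.

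Imazalil gave a similar picture. INHBE stood at 6.11, 5.65 and 6.70 log2 units at 10 µM imazalil, against 7.32, 7.67 and 8.04 in DMSO. These groups did not overlap either, and P2 was again the lowest array at 10 µM. The difference was -1.52 (SE 0.29), or 2.87-fold lower, with -1.21, -2.02 and -1.34 within the P codes. In bulk cultures, fewer INHBE-expressing cells and less INHBE RNA per cell cannot be told apart.

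At 10 µM 2,4-D, INHBE stood at 7.37, 7.36 and 7.60 log2 units, against 7.39, 7.82 and 8.14 in DMSO. The groups overlapped, and the difference was -0.34 (SE 0.29), with -0.03, -0.46 and -0.54 within the P codes.

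**Figure D1:**
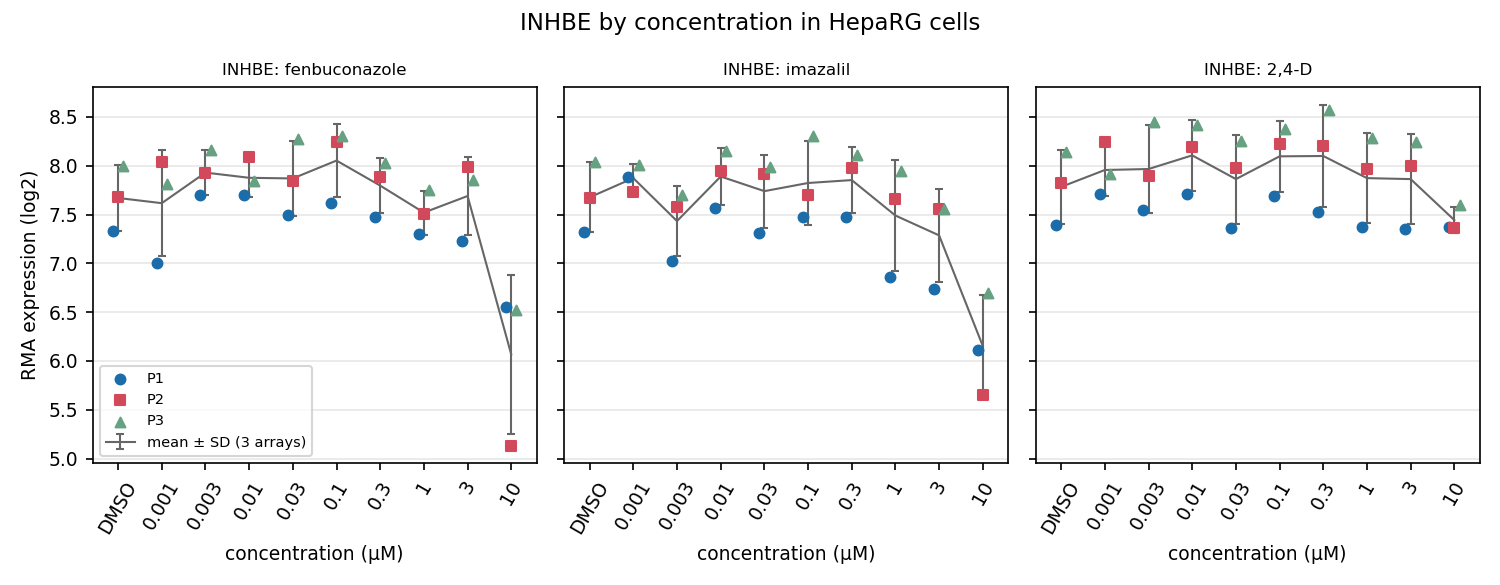
INHBE expression (RMA, log2) by concentration in µM for each chemical, with DMSO at the left. Points are single arrays by P code and the grey line joins group means with SD bars (n = 3). The 10 µM arrays of fenbuconazole (5.13 to 6.55) and imazalil (5.65 to 6.70) sit below all DMSO arrays, and those of 2,4-D (7.36 to 7.60) overlap them.

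The low level was a feature of the top concentration. Below 10 µM the group means of INHBE lay between 7.52 and 8.05 under fenbuconazole, between 7.28 and 7.89 under imazalil and between 7.86 and 8.11 under 2,4-D. When the 10 groups of each chemical were put in order of INHBE level, 10 µM was the lowest in all 3 sets. The step to the next group was 1.45 log2 units under fenbuconazole, where 1 µM came next, and 1.13 under imazalil, where 3 µM came next. Neither step had overlapping arrays. Under 2,4-D, DMSO came next at a distance of 0.34, with overlapping arrays. All other neighbours in the 3 orders overlapped.

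At 3 µM imazalil INHBE stood at 6.74, 7.56 and 7.56 log2 units, against 7.32, 7.67 and 8.04 in DMSO. Each array was below the DMSO array of its own P code, by 0.58, 0.11 and 0.48, but the groups overlapped. Below 10 µM the same pattern was seen at 0.003 and 1 µM imazalil and at 1 µM fenbuconazole. At 3 µM fenbuconazole the arrays stood at 7.23, 7.99 and 7.85, with a difference from DMSO of 0.02 (SE 0.30).

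Set side by side at 10 µM, INHBE differed between fenbuconazole and imazalil by -0.08 (SE 0.32), which does not show that the fungicides act alike. The difference between fenbuconazole and 2,4-D was -1.26 (SE 0.32), and that between imazalil and 2,4-D was -1.18 (SE 0.32). Both fungicides carry an azole ring, which 2,4-D lacks, and the part of the ring in these differences was not tested. Neither a p-value nor an interval is attached to these INHBE contrasts, since the gene was chosen for its values in them.

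The P code was not used to choose the members, and INHBE could be tested on it. P1 was the lowest of the 3 arrays in 23 of the 24 treated groups below 10 µM, and P3 was the highest in 20 of them. Under 2,4-D, INHBE averaged 8.22 in P3 and 7.99 in P2, against 7.50 in P1 (n = 10 arrays each), a difference P3 minus P1 of 0.72 (SE 0.07, adjusted p = 6.22e-07, limma moderated F with Benjamini-Hochberg adjustment over 54715 probe sets). Under imazalil the difference P3 minus P1 was 0.68 (SE 0.09, limma adjusted p = 0.000204). Under fenbuconazole it was 0.51 (SE 0.14) and did not pass (limma adjusted p = 0.0920), but without the 10 µM arrays, an alternative added after the data were seen, it was 0.57 and passed (limma adjusted p = 9.29e-05). Across all probe sets, the P code term passed for 2.86% under fenbuconazole, 3.13% under imazalil and 4.82% under 2,4-D. The DMSO arrays are common to the 3 tests, and the treated arrays are not. In 6 of the 9 2,4-D groups the title numbers the replicates otherwise than the P code, and by the title number the 2,4-D difference was 0.20 and did not pass (limma adjusted p = 0.967).

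Among the other members, INHBA 210511_PM_s_at differed among P codes under fenbuconazole, by 0.39 for P3 minus P1 (SE 0.06, limma adjusted p = 0.00144). FST 204948_PM_s_at did so under 2,4-D, by 0.20 (SE 0.05, limma adjusted p = 0.0246). At 10 µM of either fungicide the order of the P codes for INHBE was another one, with P2 the lowest.

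Of the 5 members that were tested against DMSO, INHBB was the 1 that passed the threshold at any concentration. The 10 probe sets of the other 5 genes were each compared with DMSO in 27 contrasts, and an adjusted p (limma moderated t, Benjamini-Hochberg over 54715 probe sets) of 0.05 was the threshold. At 10 µM imazalil 1 of the 10 was lower and 0 were higher. By the same threshold 0.152% of all probe sets were lower there and 0.406% passed in either direction. At an unadjusted p under 0.05, 4 of the 10 were lower at 10 µM imazalil, and 8.32% of all probe sets reached that level. At 10 µM fenbuconazole 0 of the 10 passed, against 0.0896% of all probe sets lower and 0.256% higher. At an unadjusted p under 0.05, 3 of the 10 were lower there, and 6.5% of all probe sets reached that level. At 10 µM 2,4-D 0 of the 10 and 0% of all probe sets passed, and 0 of the 10 had an unadjusted p under 0.05, against 5.55% of all probe sets. In the 24 contrasts below 10 µM, 0 of the 10 passed in any. The share of all probe sets that passed there was 0.00366% at 3 µM fenbuconazole, 0.00731% at 1 µM imazalil, 0.0366% at 3 µM imazalil, 0.00183% at 0.01 µM and 0.00183% at 3 µM 2,4-D, and 0% in the others.

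INHBB stood at 6.65, 6.76 and 6.83 log2 units at 10 µM imazalil, against 7.34, 7.23 and 7.23 in DMSO. The groups were well apart, and every array at 10 µM lay below those of the other imazalil groups. The difference was -0.52 (SE 0.09, limma adjusted p = 0.00454), or 1.43-fold lower, with -0.68, -0.47 and -0.39 within the P codes. The overall test across the 9 imazalil concentrations also passed (limma moderated F, adjusted p = 0.0175), as it did for 0.214% of all probe sets. Under fenbuconazole and 2,4-D the overall test called 0 of the 10, against 0.232% and 0.00548% of all probe sets. With any 1 replicate left out, the contrast at 10 µM kept its direction and no longer passed, with limma adjusted p values of 0.211 without P1, 0.318 without P2 and 0.118 without P3. It was 0.257 when only the 6 arrays compared were fitted.

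At 10 µM fenbuconazole INHBB stood at 6.93, 6.67 and 7.04 log2 units, against 7.26, 7.22 and 7.18 in DMSO, again with no overlap. The difference of -0.34 (SE 0.10) did not pass (limma adjusted p = 0.277). Against the 12 arrays of the 4 lowest fenbuconazole concentrations in place of DMSO it was -0.42 and passed (limma adjusted p = 0.00421). At 10 µM 2,4-D the arrays stood at 7.10, 6.78 and 7.19, against 7.26, 7.22 and 7.17 in DMSO, and the difference of -0.20 (SE 0.10) did not pass (limma adjusted p = 0.922).

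**Figure D2:**
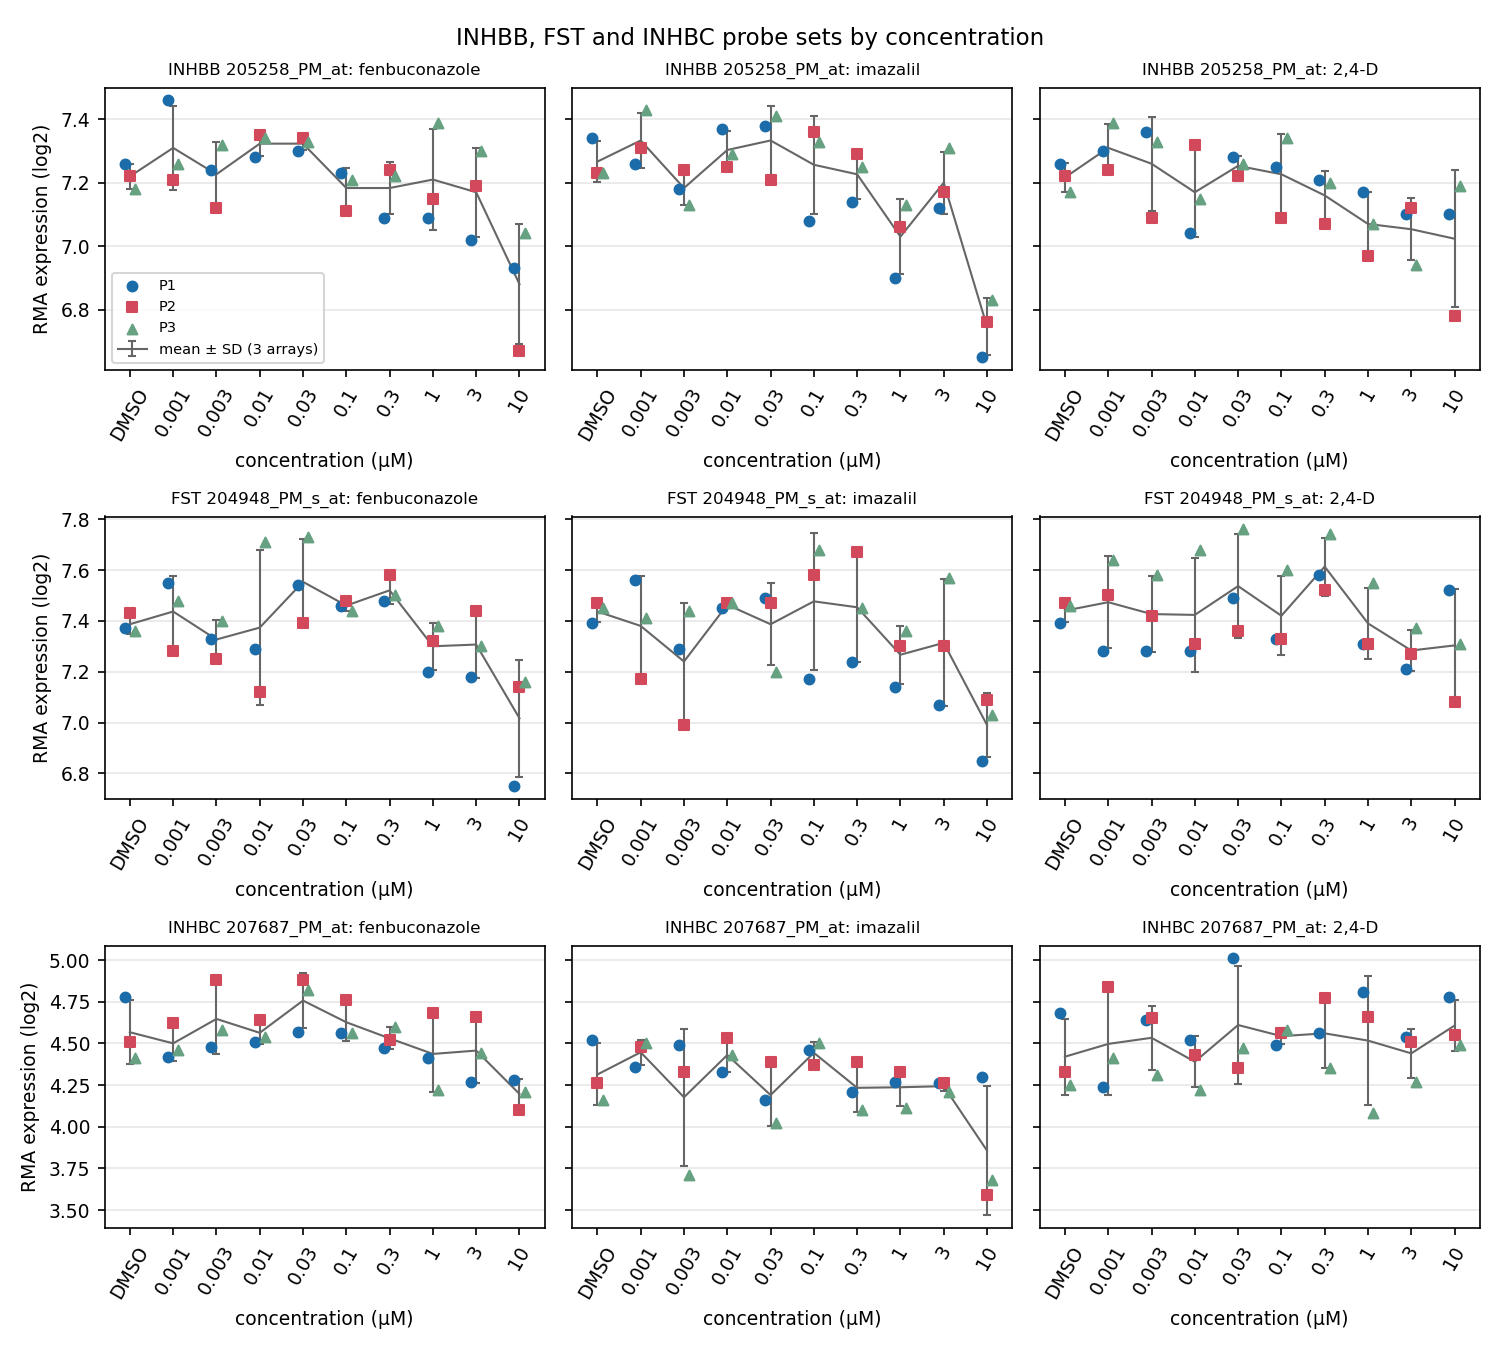
RMA expression (log2) of INHBB, FST 204948_PM_s_at and INHBC 207687_PM_at by concentration in µM, with DMSO at the left, points by P code and means with SD (n = 3). The INHBB arrays at 10 µM imazalil (6.65 to 6.83) lie below the DMSO arrays (7.23 to 7.34).

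The follistatin gene FST has 3 probe sets, whose differences from DMSO were of unequal size. FST 204948_PM_s_at stood at 6.75, 7.14 and 7.16 log2 units at 10 µM fenbuconazole, against 7.37, 7.43 and 7.36 in DMSO. At 10 µM imazalil it stood at 6.85, 7.09 and 7.03, against 7.39, 7.47 and 7.45 in DMSO. Neither fungicide's arrays overlapped DMSO, yet the differences of -0.37 (SE 0.13, limma adjusted p = 0.435) and -0.45 (SE 0.14, limma adjusted p = 0.266) did not pass.

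The other FST probe sets differed less from DMSO. FST 207345_PM_at had differences of -0.11 at 10 µM fenbuconazole and -0.07 at 10 µM imazalil. FST 226847_PM_at stood at 5.33, 5.08 and 5.78 at 10 µM imazalil, against 5.57, 5.21 and 6.14 in DMSO, a difference of -0.24 (SE 0.22). The DMSO arrays of this probe set were themselves low beside several low concentrations, such as 6.23, 6.21 and 6.31 at 0.001 µM imazalil. Against the 4 lowest imazalil concentrations the difference was -0.79 (limma adjusted p = 0.00441).

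INHBC, the liver-expressed neighbour of INHBE, has 2 probe sets whose differences from DMSO had opposite signs under both fungicides. INHBC 207687_PM_at stood at 4.28, 4.10 and 4.21 log2 units at 10 µM fenbuconazole, against 4.78, 4.51 and 4.41 in DMSO, a difference of -0.37 (SE 0.13, limma adjusted p = 0.435) with no overlap. At 10 µM imazalil it stood at 4.30, 3.59 and 3.68, against 4.52, 4.26 and 4.16 in DMSO, a difference of -0.46 (SE 0.16, limma adjusted p = 0.365) with overlap. At 10 µM 2,4-D it was 0.18 (SE 0.18) above DMSO. INHBC 207688_PM_s_at differed from DMSO by 0.26, 0.22 and -0.04 at 10 µM fenbuconazole, imazalil and 2,4-D. The INHBC probe sets thus give no common direction, and none of these differences passed.

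INHBA, the beta A subunit gene, was near the bottom of the scale. INHBA 204926_PM_at exceeded the column median in 2 of the 90 columns. INHBA 210511_PM_s_at, above the median in all 90, stood at 2.96, 3.26 and 2.93 log2 units at 10 µM imazalil, against 3.36, 3.39 and 3.51 in DMSO. These groups did not overlap, but the difference of -0.37 (SE 0.15) did not pass (limma adjusted p = 0.442). Its difference was -0.30 (SE 0.18) at 10 µM fenbuconazole and 0.08 (SE 0.23) at 10 µM 2,4-D.

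The receptor gene ACVR1C had higher means than DMSO at 10 µM of each chemical in 1 of its 2 probe sets. ACVR1C 1552519_PM_at stood at 4.50, 4.45 and 4.54 log2 units at 10 µM imazalil, against 4.17, 4.28 and 4.27 in DMSO. The arrays lay above all DMSO arrays, and the difference of 0.25 (SE 0.16) did not pass (limma adjusted p = 0.738). It was 0.30 (SE 0.18) at 10 µM fenbuconazole and 0.14 (SE 0.12) at 10 µM 2,4-D. ACVR1C 1563182_PM_at exceeded the column median in 3 of the 90 columns.

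With INHBE, whose values at 10 µM chose the genes, left aside, 3 of the 10 other probe sets had every array at 10 µM fenbuconazole below every DMSO array. At 10 µM imazalil 4 of the 10 had this, and at 10 µM 2,4-D 0 of the 10. Of all probe sets, 5.17%, 5.69% and 4.02% showed the same separation under fenbuconazole, imazalil and 2,4-D. INHBB and FST 204948_PM_s_at were in both fungicide counts. The median difference of the 10 tested probe sets was -0.12 at 10 µM fenbuconazole, -0.17 at 10 µM imazalil and -0.01 at 10 µM 2,4-D, while that of all probe sets was 0 in each.

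**Figure D3:**
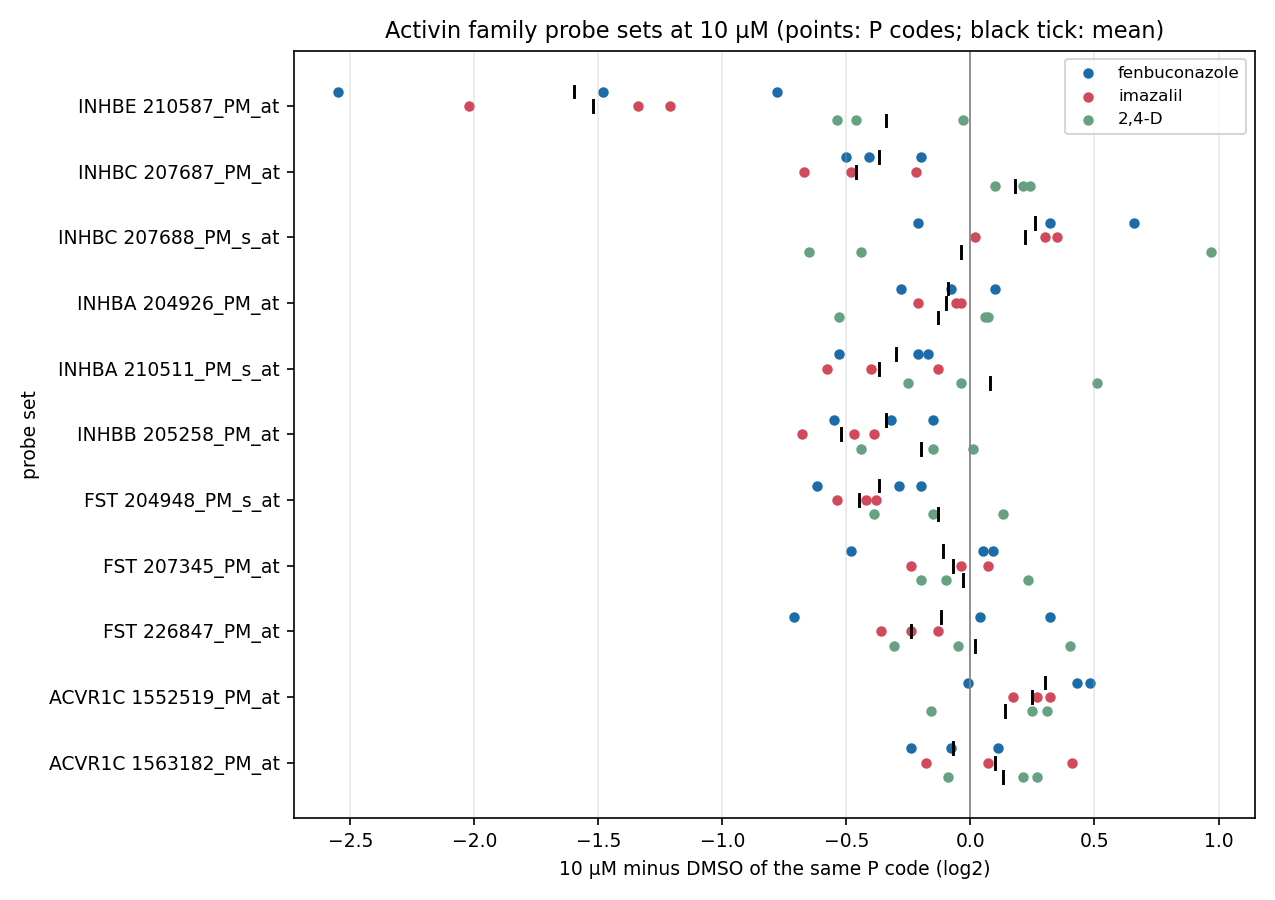
Differences at 10 µM minus DMSO of the same P code (log2) for the 11 probe sets. Points are P codes, colours are chemicals and black ticks are means (n = 3). INHBE reached -2.55 under fenbuconazole and -2.02 under imazalil, and the largest fall of INHBB was -0.68.

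The chemicals were also compared with each other at 10 µM, in 3 pairs, on values from which the mean of the DMSO arrays had been subtracted. None of the 10 tested probe sets passed in any pair (limma moderated t, adjusted over 54715 probe sets), against 0.269% of all probe sets for fenbuconazole minus imazalil, 0.356% for fenbuconazole minus 2,4-D and 0.389% for imazalil minus 2,4-D. At an unadjusted p under 0.05 there were 0, 1 and 4 of the 10, against 6.41%, 6.47% and 7.57% of all probe sets. The nearest was INHBC 207687_PM_at, with a difference imazalil minus 2,4-D of -0.64 (95% interval -0.97 to -0.31, limma adjusted p = 0.0568). It passed after quantile normalization of all columns (limma adjusted p = 0.0292) and with dim probe sets left out (limma adjusted p = 0.0334). With the P code added to the fit as a block it also passed (limma adjusted p = 0.0163). For INHBB the same difference was -0.32 (95% interval -0.51 to -0.13, limma adjusted p = 0.179). Between fenbuconazole and imazalil, INHBB differed by 0.18 (95% interval -0.02 to 0.37, limma adjusted p = 0.835).

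The wider pathway was read from 5 gene lists holding 72 genes, namely other ligands of the superfamily, other receptors and co-receptors, SMADs and their regulators, extracellular inhibitors and processing enzymes, and SMAD target genes. Of the 67 genes measured, 0 passed against DMSO at 10 µM of any chemical (limma moderated t, adjusted over 54715 probe sets), with 7, 6 and 4 at an unadjusted p under 0.05 for fenbuconazole, imazalil and 2,4-D. These are 10.4%, 8.96% and 5.97% of the 67, while 7.71%, 10% and 5.64% of all genes reached that level. The median difference was -0.03, -0.04 and -0.02. Among all genes with 1 probe set each, 0.131% were lower and 0.364% higher at 10 µM fenbuconazole, and 0.253% were lower and 0.405% higher at 10 µM imazalil.

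The smallest adjusted p under fenbuconazole belonged to TGFBI, a TGF-beta-induced matrix protein, with a difference of -0.33 (SE 0.09, limma adjusted p = 0.174). Under imazalil it belonged to PCSK6, a proprotein convertase, with -0.28 (SE 0.09, limma adjusted p = 0.307). The type II receptor gene ACVR2A differed by 0.01 and 0.03 under the same chemicals. The type II receptor gene ACVR2B differed by -0.25 and -0.29, and the type I receptor gene ACVR1B by -0.12 and -0.08. Of the 8 SMAD target genes measured, 5 were below DMSO and 3 above under each fungicide, with PMEPA1 at -0.34 and -0.32. SMAD7, an inhibitory SMAD that activin signalling induces, differed by 0.19 and 0.05. None of these passed. The 7 genes listed for ALK7 signalling and lipolysis in adipose tissue gave 0 calls under each chemical.

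INHBE is also known as a gene of the response to amino acid shortage and endoplasmic reticulum stress, so the genes of that response were set beside it. Of 16 listed genes, 4 passed as higher at 10 µM fenbuconazole and 3 at 10 µM imazalil (limma, adjusted over 54715 probe sets). Among all genes 0.364% and 0.405% were higher there. Of the 16, 0 passed as lower under either fungicide, and 0 passed at 10 µM 2,4-D. By sign alone, 12 of the 16 were above DMSO and 4 below at 10 µM of each fungicide. The same counts, 12 above and 4 below, were found at 10 µM 2,4-D and at 3 µM of each fungicide, so they are not particular to the groups with low INHBE. Those below at 10 µM of the fungicides were HSPA5 (-0.11 under fenbuconazole and -0.17 under imazalil), HERPUD1 (-0.11 and -0.05), XBP1 (-0.05 and -0.04) and PPP1R15A (-0.08 and -0.15). TRIB3, a pseudokinase induced by ATF4, averaged 8.08 log2 units at 10 µM fenbuconazole and 6.97 in DMSO, a difference of 1.11 (SE 0.08, limma adjusted p = 1.47e-09), at the dose where the INHBE difference was -1.60. At 10 µM imazalil, where the INHBE difference was -1.52, TRIB3 differed by 0.31 (SE 0.09) and did not pass (limma adjusted p = 0.226). PHGDH, the first enzyme of serine synthesis, rose by 0.56 under fenbuconazole and 0.66 under imazalil (limma adjusted p = 0.0285 and 0.00238). SLC7A11, the cystine transporter, rose by 0.85 and 0.84 (limma adjusted p = 0.000468 and 4.2e-05). PSAT1, another enzyme of serine synthesis, passed under fenbuconazole, and ASNS, asparagine synthetase, passed under imazalil. ATF4 itself differed by 0.35 and 0.22 and did not pass.

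Cell type markers were read beside these values at 10 µM. The summed log2 level of the 9 hepatocyte markers was 108 to 109 under fenbuconazole and 107 in every DMSO array after rounding, and it was 108 to 109 under imazalil and 106 to 107 in DMSO. CYP3A4 was the marker of this list that passed, by 2.23 under fenbuconazole and 2.70 under imazalil. The sum therefore runs against most of the list, of which 5 of 9 were below DMSO under fenbuconazole (median -0.07) and 6 of 9 under imazalil (median -0.05). The 7 mesenchymal markers summed to 39.8 to 41.9 under imazalil and 41.9 to 43.8 in DMSO. COL3A1 was the marker of this list that passed there (-0.82, SE 0.13, limma adjusted p = 0.00116). By sign, 5 of the 7 were below DMSO under imazalil (median -0.22) and 5 under fenbuconazole (median -0.10). Under 2,4-D 7 of the 7 were below (median -0.06), and 0 passed under either of these 2 chemicals. The biliary list summed to 32 to 33.1 under fenbuconazole and 31.1 to 31.9 in DMSO. Under imazalil it summed to 32.4 to 32.5, against 30.8 to 31.5 in DMSO. SPP1 was higher under both, by 0.53 and 0.86, and was the marker of this list that passed. The list had no common direction, with 4 of 6 above DMSO under fenbuconazole and 3 of 6 under imazalil. KRT19 differed by 0.10 under fenbuconazole and -0.17 under imazalil. The 6 immune markers summed to 19.6 to 20.6 under imazalil and 19.4 to 19.9 in DMSO. CD14 was higher there by 0.88 (SE 0.09), while 4 of the 6 were below DMSO and the median was -0.06. The part of these markers in the INHBE and INHBB values was not tested.

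Genes that moved most like INHBE were sought over the 81 treated columns, each set to the mean of its chemical, among 10099 genes with a mean of at least 4 log2 units. These columns share the P codes and the concentrations, so the correlations describe these columns only. The 8 highest were AHSG (r = 0.95), CRP (0.94), LEAP2 (0.93), IL1R2 (0.91), AQP3 (0.90), GLYATL1 (0.89), SPP2 (0.88) and TMEM45A (0.88). AHSG encodes fetuin-A and CRP encodes C-reactive protein, plasma proteins made by hepatocytes. LEAP2 encodes a secreted liver peptide and IL1R2 a decoy receptor for interleukin-1.

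Without the 10 µM columns the r was 0.88 for AHSG, 0.90 for CRP, 0.84 for LEAP2 and 0.87 for IL1R2. It was 0.74 for AQP3, 0.77 for GLYATL1, 0.65 for SPP2 and 0.82 for TMEM45A. Of the 8 genes, 4 stayed among the 8 highest. With the mean of each P code removed, 7 of the 8 stayed, and by Spearman rho 5 of the 8. AHSG stood at 9.42, 9.06 and 9.65 log2 units at 10 µM imazalil, against 10.55, 10.58 and 10.79 in DMSO, with no overlap. The P2 array was the lowest at 10 µM, as it was for INHBE. At 10 µM fenbuconazole AHSG stood at 9.99, 9.26 and 10.11, against 10.54, 10.51 and 10.81 in DMSO. AHSG was picked for its r with INHBE over columns that include these 10 µM arrays. Its low level and array order there are therefore no separate finding.

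At the other end were AKR1B10 (r = -0.88), SRXN1, TXNRD1, AKR1C1 and ABCB1 (r = -0.87 each). AKR1B10 and AKR1C1 encode aldo-keto reductases, SRXN1 and TXNRD1 encode redox enzymes, and ABCB1 encodes the efflux pump P-glycoprotein. Without the 10 µM columns the r of these 5 lay between -0.78 and -0.70, and 0 of them stayed among the 5 lowest. With the mean of each P code removed 4 stayed, and by Spearman rho 3. The other members lay between, with r of 0.74 for FST 226847_PM_at, 0.64 for INHBB, 0.60 for FST 204948_PM_s_at, 0.54 for INHBA 210511_PM_s_at, 0.35 and 0.23 for INHBC and -0.02 and -0.19 for ACVR1C. For INHBB the r was 0.20 without the 10 µM columns.

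**Figure D4:**
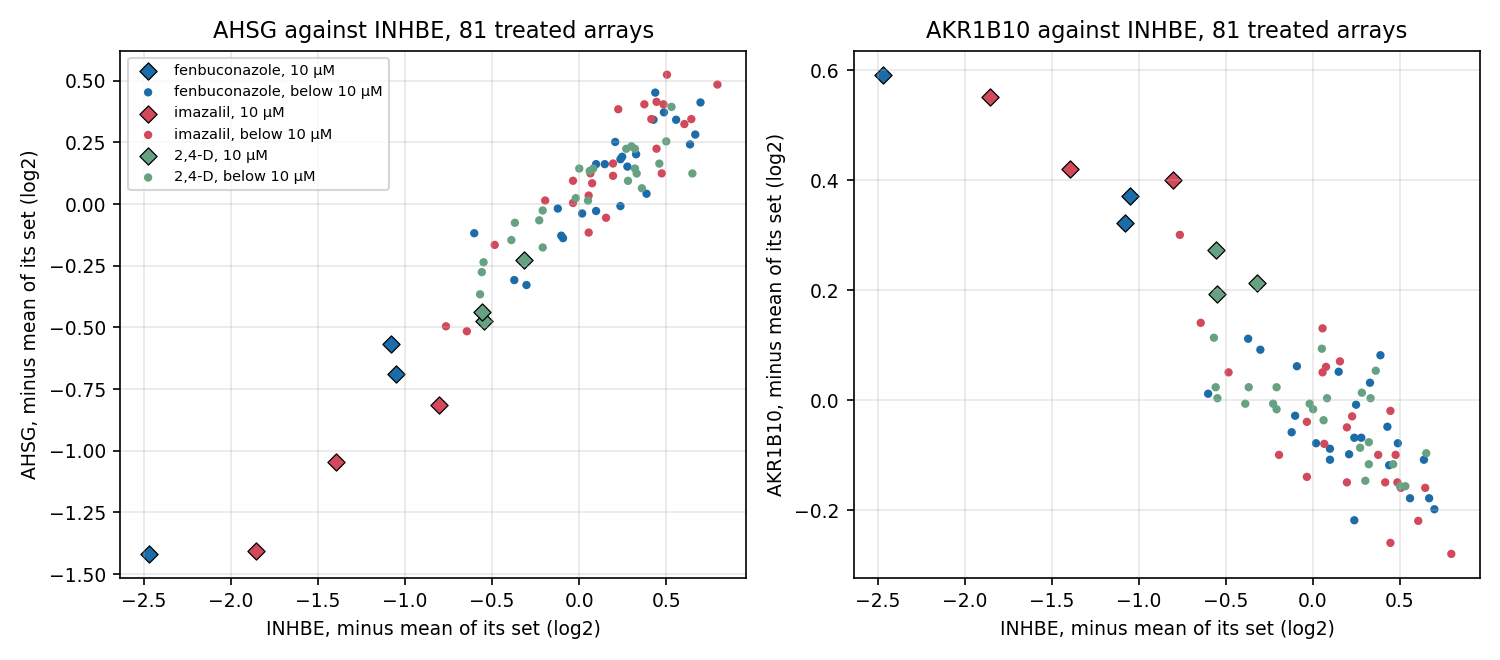
AHSG (left) and AKR1B10 (right) against INHBE in the 81 treated arrays, each as log2 expression minus the mean of the treated arrays of its chemical. Diamonds are 10 µM arrays and dots lower concentrations. AHSG runs with INHBE (r = 0.95) and AKR1B10 against it (r = -0.88), and the fungicide arrays at 10 µM hold the low end of INHBE.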

How the data were processed

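Expression in HepaRG cells was measured with Affymetrix HT HG-U133+ PM arrays. The authors summarised them by RMA and deposited log2 values. Each chemical formed a set of 30 columns that contains the common DMSO arrays, 90 columns in all. RMA and Partek are named in the processing notes of the submitters, with versions not given in the sources used. Arrays have no counting depth, so their number limits the precision. Symbols came from the platform annotation.

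Group means were fitted to the 30 columns of each set with limma 3.58.1 (R 4.3.3, with the package for tables, data.table, version 1.17.8), following the study's supplement. Contrasts with DMSO used the moderated t, the overall response and the P codes the moderated F, and p values were adjusted by Benjamini-Hochberg over the 54715 probe sets, with a threshold of 0.05. Chemicals were compared on the 81 treated columns, minus the DMSO mean in the same set. The fits were tested on simulated data. Plots used Python 3.11.15 with matplotlib 3.10.9.

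The members and the gene lists were chosen with earlier results of these data known. Named list genes are those past the threshold, up to 4 a list with the smallest adjusted p. The gene with the smallest adjusted p of the pathway lists is also named. Others were named after their values were seen, namely ATF4, ACVR2A, ACVR2B, ACVR1B, SMAD7, PMEPA1, HSPA5, HERPUD1, XBP1, PPP1R15A and KRT19. Genes like INHBE are the 8 highest and 5 lowest Pearson r. A gene was represented by its probe set with the highest mean.

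The supplement describes the replicates as independent experiments on separate batches of cells. In 6 of the 9 2,4-D groups the replicate number of the title differs from the P code. The 2,4-D labels at 0.001 and 0.003 µM in P2 carry 1 shared sample number, and a slip in 1 of them is possible. Other data sets of the study were not analysed here.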

Additional observations from a re-analysis of the deposited data

How the results depend on the processing

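The difference of INHBE from DMSO kept its direction under every alternative run, at -2.01 to -1.13 under 10 µM fenbuconazole when 1 replicate was left out, with -1.13 without P2. Against the 4 lowest concentrations it was -0.53 under 2,4-D in place of -0.34. With 3 arrays a group the precision is limited by their number, and INHBE contrasts carry no test.

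Against the 4 lowest concentrations as the reference, 2 of the 10 tested probe sets were lower at 10 µM fenbuconazole in place of 0 (INHBC 207687_PM_at at -0.42 and INHBB at -0.42), and 3 in place of 1 at 10 µM imazalil (INHBA 210511_PM_s_at at -0.47, INHBB and FST 226847_PM_at). For imazalil the count at 10 µM was 0 with each replicate left out in turn, 0 with only the 6 columns compared, where INHBB had a limma adjusted p of 0.257, and 1 under the other alternatives. The overall test for imazalil called 0 probe sets with each replicate left out in turn and 2 (INHBB and FST 226847_PM_at) by a linear trend on log10 concentration. The pair imazalil minus 2,4-D gave 1 call in place of 0 with the replicate block, with quantile normalization of all columns and with dim probe sets left out, each time INHBC 207687_PM_at, with a limma adjusted p of 0.0163 in the replicate block. The share of all probe sets that passed under these alternatives is not given, so the counts describe the members only. The cause of these differences was not tested.

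P3 minus P1 of INHBE under fenbuconazole passed with an intensity trend (0.51, limma adjusted p = 0.0333) and without 10 µM (0.57, limma adjusted p = 9.29e-05), and 2 member probe sets in place of 1 differed among P codes in both. Under 2,4-D the count was 4 with an intensity trend and 4 with dim probe sets left out, in place of 2. For these alternatives too the share of all probe sets is not given. With the replicate number of the title it was 0, and INHBE then differed by 0.20 (limma adjusted p = 0.967).

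Samples shared a number rather than a pairing that the labels state, and the main contrasts left the P code out of the fit. Of the 135 pairs with the same P code, 73, 70 and 81 correlated over 0.1 in the fenbuconazole, imazalil and 2,4-D sets. With group means subtracted, the mean r was 0.0979, 0.094 and 0.117 for the same code. For other codes it was -0.0489, -0.0468 and -0.0582. In these sets 22, 23 and 26 of the 30 arrays correlated best with their own code. With the replicate block INHBE stayed at -1.60 under fenbuconazole and -1.52 under imazalil, and INHBB at -0.52 under imazalil (limma adjusted p = 0.00259). Of all alternative values, 239 kept their side of the threshold or stayed within the spread or 1.5 times the count, 21 moved, 5 became stronger, 5 weaker and 0 reversed.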
